A study of Mus musculus with 9 samples.

Results

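The mRNAs described here encode the protein components of the small (40S) subunit of the cytosolic ribosome. They are 29 genes of 55357 in a table of transcript abundance: Rpsa, Fau and 27 genes whose symbols start with Rps, each taken by its symbol in the table. The libraries were made from SV40-MES-13, an SV40-transformed mouse kidney line described by the submitters as mesangial, after oligo(dT) enrichment of mRNA. Every culture had received a lentiviral vector based on pLL3.7, an shRNA vector. There were 2 libraries with the empty vector (EV), 1 library with the Drosha shRNA sh5 and 2 libraries with the Drosha shRNA sh7. Library titles call the shRNA cells knockouts, whereas the protocols describe shRNA knockdown, the word used here. Drosha is the nuclear enzyme that cuts primary microRNA transcripts, and the series title links it to ribosomes. The protocol names more than 1 model of sequencer, and the part of this in the values was not tested. The target sequence of sh5 has 21 bases and that of sh7 has 19 bases. Both are printed here because the library titles set the groups apart by these agents.
sh5: cctggaatatgtccacacttt
sh7: gtgtgcccattgaaataaa

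The small subunit binds mRNA, scans for the start codon and pairs codons with tRNA, and each of its proteins is normally present once per subunit. Cells keep the mRNAs of these proteins at high levels. Most of them are terminal oligopyrimidine (TOP) mRNAs, which start with a C followed by an uninterrupted run of pyrimidines, and their translation is controlled together through mTOR and the RNA-binding protein LARP1. The quantity measured here is transcript abundance and not translation.

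The annotated starts were searched for pyrimidine runs. RefSeq promoter windows on the mouse build GRCm38.p6 were found for 25 of the 29 genes, with 30 annotated starts. Rps14, Rps20, Rps27a and Rps29 had no match. A window of 25 bases before and 15 bases from the start onwards is printed below for 10 genes, so the annotated first base of the transcript is base 26. Capitals mark every run of at least 5 pyrimidines on the gene's strand. Rps6, Fau and Rps18 are shown as examples with a long run at the start, Rps2 as the most abundant member, Rps12, Rps13, Rps26, Rps25 and Rps9 as the 5 members lowest in sh7 relative to EV, and Rps27l, by the first of its annotated starts, as the member with the highest sh7 value relative to EV.
Rps6: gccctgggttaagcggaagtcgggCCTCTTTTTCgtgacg
Fau: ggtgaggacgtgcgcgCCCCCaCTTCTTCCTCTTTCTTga
Rps18: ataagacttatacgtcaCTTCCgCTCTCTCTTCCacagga
Rps2: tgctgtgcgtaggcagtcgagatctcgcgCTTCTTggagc
Rps12: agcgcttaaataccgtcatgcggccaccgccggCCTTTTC
Rps13: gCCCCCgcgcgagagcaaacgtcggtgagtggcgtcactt
Rps26: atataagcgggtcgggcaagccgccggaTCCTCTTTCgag
Rps25: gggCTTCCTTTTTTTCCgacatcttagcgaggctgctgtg
Rps9: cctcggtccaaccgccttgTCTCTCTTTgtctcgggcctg
Rps27l: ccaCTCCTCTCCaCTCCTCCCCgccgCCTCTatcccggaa

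These windows lie at chr4:86857353-86857392 on the minus strand (Rps6), chr19:6057922-6057961 on the plus strand (Fau), chr17:33955651-33955690 on the minus strand (Rps18) and chr17:24720038-24720077 on the plus strand (Rps2). The other windows lie at chr10:23787195-23787234 on the minus strand (Rps12), chr7:116334176-116334215 on the minus strand (Rps13), chr10:128626492-128626531 on the minus strand (Rps26), chr9:44407689-44407728 on the plus strand (Rps25), chr7:3704016-3704055 on the plus strand (Rps9) and chr9:66946061-66946100 on the plus strand (Rps27l). The 25 matched genes lie on 12 chromosomes. A run of at least 5 pyrimidines was present in the window of 26 of the 30 starts (86.7%), against 57.7% of the 32851 starts in the whole table. The longest run within a window had a median of 7 bases for these starts and 5 bases for all starts.

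A stricter pattern, a C followed by at least 4 pyrimidines on the gene's strand and starting within 5 bases of the annotated start, was present in 13 of the 25 genes (52.0%) and in 21.2% of 27025 genes in the table. The 13 genes were Fau, Rps2, Rps6, Rps9, Rps10, Rps15a, Rps18, Rps21, Rps23, Rps24, Rps26, Rps27 and Rps27l. Of the 5 lowest members in sh7, Rps26 and Rps9 held the pattern and Rps12, Rps13 and Rps25 did not. Within 25 bases either side of the start the pattern was in 22 genes (88%) and in 59.3% of all genes. The letters TATAAA, searched on the gene's strand in the 50 bases before the start, were in 0 of the 25 genes and in 3.15% of all genes. The letters CCGGAA or their reverse complement TTCCGG, the core letters of ETS-family sites, were in those 50 bases in 5 genes (20%), Rps3a1, Rps7, Rps10, Rps19 and Rps21, and in 5.44% of all genes. TCTT, searched on both strands within 10 bases of the start, was in 9 genes (36.0%) against 17.7% of all genes, and within 25 bases in 11 genes (44.0%) against 38.5%.

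As a check of the targeted gene, Drosha stood at 60.0 and 56.4 in the EV libraries, 36.0 in sh5 and 8.39 and 14.9 in sh7, in TPM, a transcript abundance scaled by length and to a fixed sum per library. Its log2 difference from EV was -2.27 (SE 0.266, adjusted p = 0.109) in sh7 and -0.68 (SE 0.326, adjusted p = 0.572) in sh5. These and the following adjusted p-values come from limma on log2(TPM + 1), with Benjamini-Hochberg adjustment over the 12728 genes whose mean level reached 1 TPM. Of 12 mesangial and pericyte markers, Vim alone had a mean of at least 1 TPM (498 to 848 TPM). Des reached at most 1.14 TPM, Pdgfrb at most 0.251 TPM, Acta2 at most 0.118 TPM, and Ren1 was listed at 0. The defining markers of the labelled cell type were thus largely absent in every library. Of 9 tubule and epithelium markers, 5 had a mean of at least 1 TPM, the highest being Cdh16 at 126 to 154 TPM and Pax8 at 51.7 to 89.0 TPM. The segment markers Umod, Aqp2 and Slc34a1 were listed at 0 in every library, Slc12a1 was at most 0.0147 TPM and Lrp2 at most 2.68 TPM. Mitochondrially encoded mRNAs took 1.16% and 0.860% of all TPM in EV, 0.396% in sh5 and 0.751% and 1.42% in sh7. The part of these mRNAs in the results below was not tested on its own. The labels do not state that replicates were separate cultures, and the p-values therefore cover the spread among these libraries alone, which may be technical.

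All 29 genes passed the filter on low values, and 28 of them were among the 500 most abundant genes in every library. Between 18 and 21 of them were among the 100 most abundant. Levels are compared here in TPM, which is scaled by transcript length. In the EV libraries the member mean ran from 133 TPM for Rps7 to 6029 TPM for Rps2. Spearman's rank correlation of the 29 levels between any pair of libraries lay between 0.964 and 0.994, a description over genes that share each library's scaling.

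Rps2, a protein of the mRNA entry channel, had the highest level, at 5979 and 6079 TPM in EV, 7186 in sh5 and 6395 and 5812 in sh7. Its sh7 values lay on both sides of the EV values, and sh5 was above all others. Rps18, a head protein that contacts the large subunit, was next, at 4308 and 4681 TPM in EV, 5256 in sh5 and 4213 and 4150 in sh7. Both sh7 libraries were below both EV libraries for this gene.

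Rps24, needed for processing of 18S ribosomal RNA, followed at 4012 and 4245 TPM in EV, 4415 in sh5 and 4244 and 3938 in sh7. Rps10, a head protein at the mRNA entry side, came after it at 3592 and 3479 TPM in EV, 3924 in sh5 and 3686 and 3191 in sh7. The sh7 and EV values of both genes overlapped. Together the 4 most abundant mRNAs made up 29.1% to 31.1% of the summed level of the 29 genes, depending on the library.

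Rps7, which also binds the p53 ligase MDM2, was listed lowest, at 134 and 132 TPM in EV, 146 in sh5 and 111 and 127 in sh7. Rps27l, a paralog of Rps27 known as a p53 target, stood at 522 and 617 TPM in EV, 684 in sh5 and 622 and 562 in sh7. The EV and sh7 values of Rps27l overlapped, whereas those of Rps7 did not.

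Rps23, a protein of the decoding centre, stood at 694 and 729 TPM in EV, 861 in sh5 and 665 and 647 in sh7. Rps20, a head protein and a substrate of ribosome quality control, stood at 684 and 778 TPM in EV, 898 in sh5 and 704 and 633 in sh7. In both genes sh5 was the highest library. Both sh7 values were below both EV values for Rps23, while for Rps20 the groups overlapped.

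Several neighbours in this order did not separate beyond their EV replicates. The EV values of Rps14 and Rps6 overlapped, as did those of Rps12, Rps27a and Rps27, those of Rps26 and Rps13, and those of Rps20 and Rps23. Rps19, at 1486 and 1707 TPM, spanned the means of Fau, Rps25 and Rpsa. By contrast the EV values of Rps2, Rps18, Rps24 and Rps10 did not overlap with one another. Rps2, Rps7, Rps10, Rps16 and Rps27l held the same place in all 5 libraries. Rps12 moved furthest, by 9 places, from 13 and 11 in EV and 11 in sh5 to 19 and 20 in sh7. The next largest spans were 5 places, for Rps4x and Rps14.

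**Figure D1:**
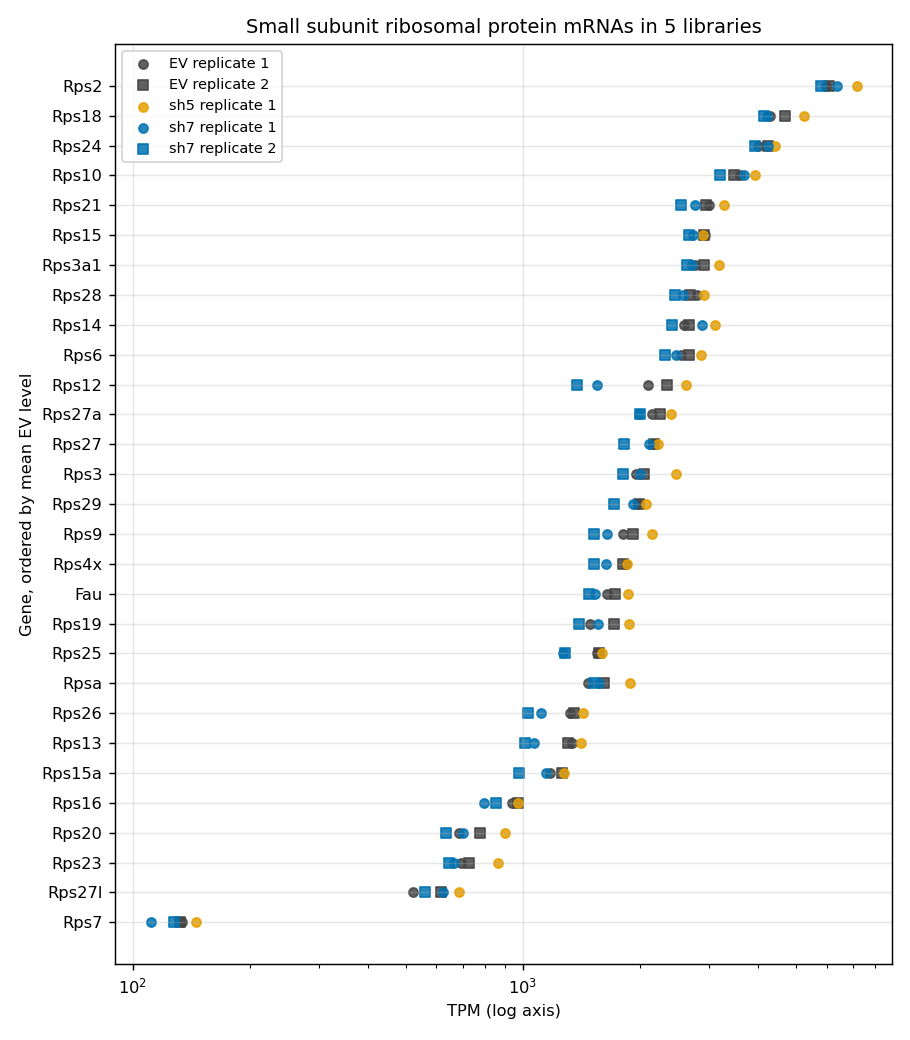
Level of each of the 29 mRNAs in the 5 libraries, in TPM on a log axis, with genes ordered by mean EV level and 1 point per library. The order is much the same in every library, from Rps7 at 111 to 146 TPM to Rps2 at 5812 to 7186 TPM, and Rps12 has its sh7 points at 1545 and 1379 TPM, apart from the EV points at 2092 and 2337 TPM.

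Near-identical processed pseudogenes change part of this order. Rps7-ps3 was listed at 1446 and 1582 TPM in EV, 1568 in sh5 and 1254 and 1337 in sh7, and so took 91.9% of the combined EV level of Rps7 and its pseudogene. Rps23-ps1 was listed at 1771 and 1897 TPM in EV, 2103 in sh5 and 1670 and 1703 in sh7. Rps23 pseudogenes took 72% of the combined EV level. The deposited values cannot show whether these reads came from the gene or from its copy, so the low places of Rps7 and Rps23 are uncertain.

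With pseudogenes added, Rps7 stood in place 21 and Rps23 in place 11 of 29, and 9 of the 29 genes kept their place in the EV order. Rps27l was then the lowest. The log2 difference between sh7 and EV of the combined level was -0.22 for Rps7 and -0.12 for Rps23, and both combined levels were below EV in sh7, as the genes alone were. The remaining pseudogenes took 9.23% of the combined EV level for Rps19 and at most 1.41% for any other gene. Rps6-ps4 was a minor copy, at 39.8 and 34.3 TPM in EV, 80.5 in sh5 and 26.0 and 14.9 in sh7.

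**Figure D2:**
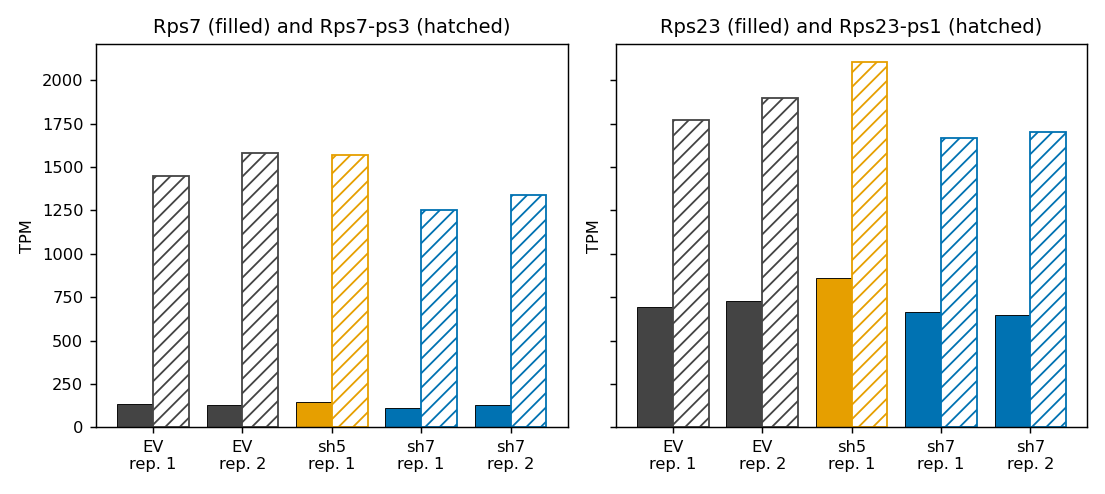
Levels in TPM of Rps7 and Rps23 (filled bars) and of their most abundant annotated pseudogenes (hatched bars) in the 5 libraries, 1 bar per library with no error bar. The pseudogene bar is the taller in all libraries, as at 1446 TPM for Rps7-ps3 beside 134 TPM for Rps7 in EV replicate 1.

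Summed over the 29 genes, small subunit mRNAs took 6.14% and 6.35% of all TPM in EV, 6.96% in sh5 and 5.96% and 5.53% in sh7. The sh5 library was the highest and both sh7 libraries were below both EV libraries. TPM sum to a fixed total per library, so a lower share can also go with more of other mRNAs. In bulk libraries this, less mRNA per cell and fewer cells that carry it cannot be told apart. The mean was 6.25% ± 0.150 (SD, n = 2) in EV and 5.75% ± 0.300 (SD, n = 2) in sh7. The summed level was thus 92.0% of the EV mean in sh7 and 111% in sh5. The 49 large subunit mRNAs, the partner set of the same ribosome, took 8.75% and 9.01% in EV, 9.65% in sh5 and 8.41% and 7.85% in sh7.

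The ratio of small to large subunit mRNA was close in all libraries, at 0.702 and 0.705 in EV, 0.721 in sh5 and 0.708 and 0.705 in sh7. The sh5 library held the highest ratio. Across the 29 genes, sh5 had the highest value of the 5 libraries in 28, and sh7 replicate 2 had the lowest in 23. The replicates also differed in one direction: EV replicate 1 was below EV replicate 2 in all but 7 genes, with a median log2 difference of -0.07, and sh7 replicate 1 was above sh7 replicate 2 in 25 genes, with a median of 0.11.

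**Figure D3:**
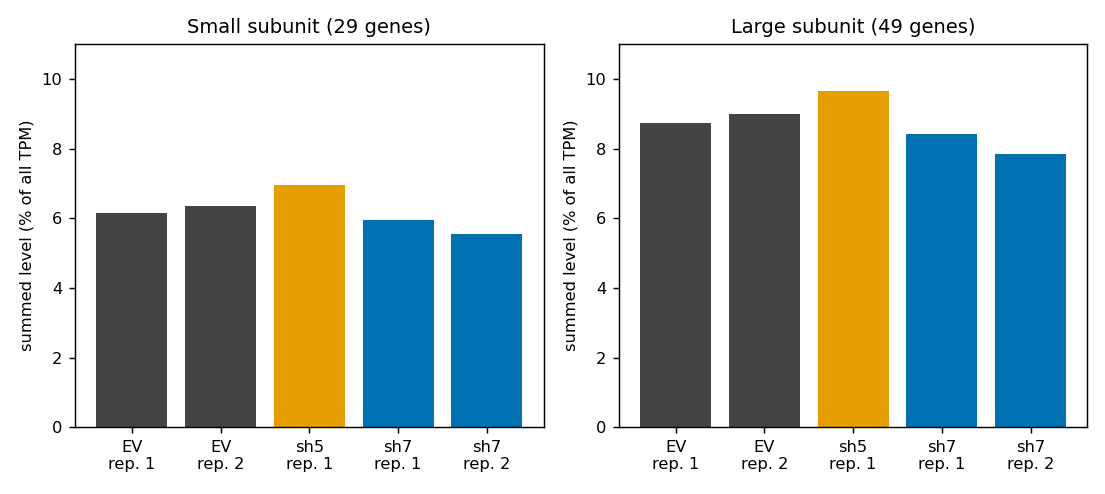
Summed level of the 29 small subunit genes (left) and 49 large subunit genes (right) as a percentage of all TPM, 1 bar per library with no error bar, axes from 0. In both panels sh5 is the tallest bar (6.96% and 9.65%) and sh7 replicate 2 the shortest (5.53% and 7.85%).

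The comparison of sh7 with EV asks how small subunit mRNAs stood in the cells with the lower Drosha level. Of the 29 mRNAs, 25 were lower in sh7 and 4 were higher, with a median log2 difference of -0.13, while the median of all genes tested was 0.09. Rps12 had the lowest value and Rps27l the highest. No member passed the adjusted threshold of 0.05 in limma, the smallest adjusted p being 0.202, and 0.0157% of all genes did. At an unadjusted p under 0.05, 7 members were lower, against 4.15% of all genes, and 0 were higher. Both sh7 libraries were below both EV libraries in 20 members, against 14.3% of all genes.

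The count of genes past the adjusted threshold was 2 with all libraries. It changed when either EV replicate or either sh7 replicate was left out, so it depended on several single libraries. None of these settings brought a member past the threshold. Between 23 and 29 members were lower whichever library was left out. The direction of the group kept its sign under the other scalings, with 29 lower after median-of-ratios scaling and 23 lower after quantile normalization. Rescaling after removal of mitochondrial genes and the top 20 genes gave 27 lower and a median of -0.14, and in sh5 1 lower and a median of 0.13. Quantile normalization moved the median of all genes from 0.09 to -0.021. Relative to the median of all genes, the members' median was -0.22 as deposited, -0.22 after median-of-ratios scaling and -0.071 after quantile normalization.

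High abundance is shared by the members with other genes, and this was described after the results had been seen. Among 227 genes outside the small and large subunit lists whose mean reached 500 TPM, 65.2% were lower in sh7 than in EV, with a median of -0.06. In sh5 61.2% of these genes were higher than in EV, with a median of 0.05. Pseudogenes of the members were not removed from this set. It therefore held Rps7-ps3 and Rps23-ps1, which can share reads with Rps7 and Rps23. The part of abundance in the members' values was not tested.

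Rps12, a head protein with a role in cell competition in flies, was lowest at 2092 and 2337 TPM in EV and 1545 and 1379 in sh7. Its mean was 2215 ± 173 TPM (SD, n = 2) in EV and 1462 ± 118 TPM (SD, n = 2) in sh7, or 66.0% of EV. The log2 difference was -0.60 (SE 0.104, limma adjusted p = 0.202, unadjusted p = 0.00243). Rps12 stood at the 2.19 percentile of all genes tested and was the lowest member under every setting tried for this comparison.

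Rps13, a body protein near the bridge to the large subunit, stood at 1336 and 1308 TPM in EV and 1070 and 1011 in sh7 (log2 difference -0.35, SE 0.0764, limma adjusted p = 0.253). Rps26, which lines the mRNA exit channel, stood at 1320 and 1351 TPM in EV and 1110 and 1028 in sh7 (log2 difference -0.32, SE 0.0801, limma adjusted p = 0.267). In both genes the groups did not overlap and the sh7 mean was 78.7% and 80.0% of EV, respectively.

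Rps25, a head protein used by many viral internal ribosome entry sites, stood at 1549 and 1568 TPM in EV and 1269 and 1284 in sh7 (log2 difference -0.29, SE 0.0721, limma adjusted p = 0.267). Rps9, a body protein that binds 18S ribosomal RNA early in assembly, stood at 1809 and 1913 TPM in EV and 1647 and 1521 in sh7 (log2 difference -0.23, SE 0.0856, limma adjusted p = 0.337). After quantile normalization the log2 difference was -0.20 for Rps26, -0.17 for Rps25 and -0.094 for Rps9. The other members with an unadjusted p under 0.05 were Rps16, at -0.21, and the X-linked Rps4x, also at -0.21.

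At the other end of the order, Rps27l had a log2 difference of 0.060 (SE 0.114) and Rps2 of 0.016 (SE 0.0933). Rpsa, which is also known as a laminin receptor, stood at 1472 and 1610 TPM in EV and 1569 and 1520 in sh7, a log2 difference of 0.0042 (SE 0.0846). Rps14, a platform protein whose loss in humans is linked to a form of myelodysplastic syndrome, stood at 2585 and 2665 TPM in EV and 2876 and 2404 in sh7, a log2 difference of 0.0025 (SE 0.113). Rps24 had -0.014 (SE 0.0895). The sh7 and EV values overlapped in each of these 5 genes, and the sign of all 5 depended on the library left out or on the scaling.

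**Figure D4:**
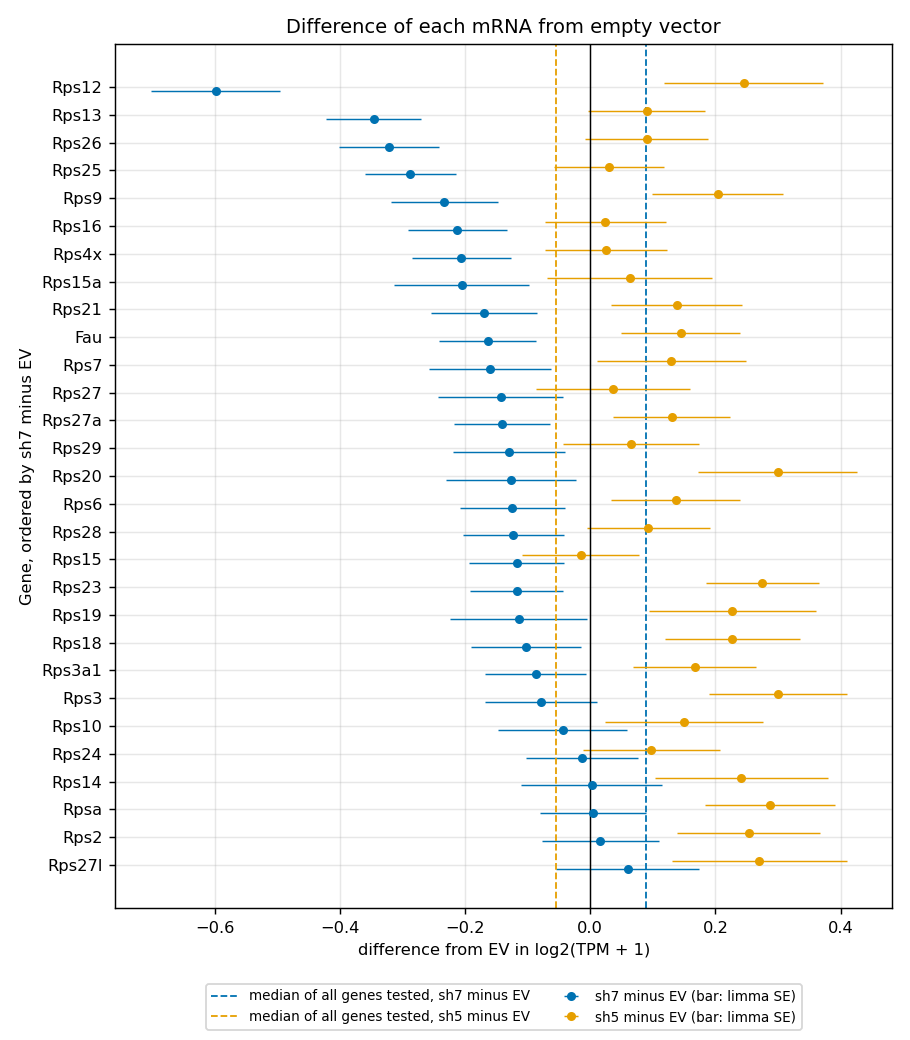
Difference of each of the 29 mRNAs from EV on the log2(TPM + 1) scale for sh7 (n = 2) and sh5 (n = 1) against EV (n = 2), with limma SE as bars and dashed lines at the median of all genes tested. The sh7 points run from -0.60 for Rps12 to 0.060 for Rps27l, most of them left of 0, and the sh5 points from -0.015 for Rps15 to 0.30 for Rps3, most of them right of 0. Both sets share the same EV libraries.

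The comparison of sh5 with EV rests on a single sh5 library, which limma assumes to vary like the others. In that library 28 members were higher than the EV mean and Rps15 was lower, with a median log2 difference of 0.14 against a median of -0.05 for all genes tested. After quantile normalization 20 were higher and 8 lower, with a median of 0.05. Relative to the median of all genes, the members' median was 0.19 as deposited and 0.028 after quantile normalization. No member passed the adjusted threshold in limma (smallest adjusted p = 0.501), and neither did any other gene (0.0%). Without EV replicate 2, 55 genes passed as higher and 4 as lower, none of them members. At an unadjusted p under 0.05, 3 members were higher, against 1.59% of all genes. The sh5 value was above both EV values in 28 members, against 26.9% of all genes.

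Rps3, which lines the mRNA entry channel and also acts in DNA repair, had the highest value, at 1953 and 2049 TPM in EV and 2463 in sh5 (log2 difference 0.30, SE 0.110, limma adjusted p = 0.520). Rps20 was at 0.30 (SE 0.127), Rpsa at 0.29 (SE 0.104), with 1880 TPM in sh5, and Rps23 at 0.28 (SE 0.0909, limma adjusted p = 0.501). For all 4 genes sh5 was the highest of the 5 libraries.

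Rps15, a head protein near the decoding site, stood at 2932 and 2912 TPM in EV, 2892 in sh5 and 2725 and 2662 in sh7, so that its sh5 value was below both EV values by a log2 difference of -0.015 (SE 0.0934). Rps16 was at 0.024 (SE 0.0968), with 940 and 971 TPM in EV, 971 in sh5 and 795 and 855 in sh7. Rps4x was at 0.025 (SE 0.0970), with 1834 and 1802 TPM in EV, 1850 in sh5 and 1629 and 1524 in sh7. For these 3 genes sh5 lay near EV while both sh7 values were below EV.

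Set directly against each other, sh7 was below sh5 in all 29 members, with a median log2 difference of -0.27, while all genes tested had a median of 0.16. After quantile normalization 25 members were lower and 4 higher. The scalings moved the median of all genes, to 0.011 with median-of-ratios scaling and to -0.032 with quantile normalization. Relative to it, the members' median was -0.43 as deposited, -0.44 with median-of-ratios scaling and -0.096 with quantile normalization.

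No member passed the adjusted threshold in limma (smallest adjusted p = 0.118), against 0.0157% of all genes. That count was 2 genes higher with all libraries, 4 without either EV replicate and 0 without either sh7 replicate. At an unadjusted p under 0.05, 13 members were lower, against 3.56% of all genes. Both sh7 values were below the sh5 value in 29 members, against 23.9% of all genes. The lowest value was that of Rps12, at -0.84 (SE 0.127, limma adjusted p = 0.118), followed by Rps9 at -0.44, Rps13 at -0.44, Rps20 at -0.43, Rps26 at -0.41 and Rps23 at -0.39. Rps15, at -0.10, and Rps24, at -0.11, were nearest to 0.

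With the 3 shRNA libraries taken as 1 arm, 19 members were lower than EV and 10 higher, with a median log2 difference of -0.05 against 0.03 for all genes tested. No member passed the adjusted threshold in limma (smallest adjusted p = 0.916), against 0.0236% of all genes, and 0 members had an unadjusted p under 0.05, against 3.76% of all genes. In 1 member, Rps15, all 3 shRNA libraries were below both EV libraries, against 7.2% of all genes. Rps25 had -0.18 (SE 0.125), Rps13 -0.20 (SE 0.155) and Rps26 -0.18 (SE 0.151), the smallest unadjusted p-values of the group. The members' median was -0.13 without the sh5 library and 0.014, with 11 members lower, without sh7 replicate 2. The pooled value therefore depended on which shRNA libraries it held.

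Paralogs and fusion genes give a view inside the group. Rps27, the zinc-finger partner of Rps27l, stood at 2153 and 2171 TPM in EV, 2217 in sh5 and 2107 and 1819 in sh7. Its log2 difference from EV was -0.14 in sh7 and 0.036 in sh5, beside 0.060 and 0.27 for Rps27l. The sh7 value of Rps27 was -0.037 without sh7 replicate 2, -0.25 without sh7 replicate 1 and 0.0045 after quantile normalization. The sh5 value of Rps27 was -0.054 after quantile normalization, and that of Rps27l was 0.15 without EV replicate 1. The EV replicates of Rps27l were further apart than those of Rps27, at a mean of 569 ± 67.4 TPM (SD, n = 2) beside 2162 ± 13.2 TPM (SD, n = 2).

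Rps27a, made as a fusion to ubiquitin, stood at 2137 and 2240 TPM in EV, 2394 in sh5 and 1979 and 1991 in sh7. Fau, made as a fusion to a ubiquitin-like protein, stood at 1641 and 1726 TPM in EV, 1861 in sh5 and 1529 and 1475 in sh7. Both were below EV in both sh7 libraries and above EV in sh5, with log2 differences of -0.14 and 0.13 for Rps27a and -0.16 and 0.15 for Fau. Quantile normalization brought these to -0.0087 and 0.020 for Rps27a and to -0.049 and 0.081 for Fau. The polyubiquitin gene Ubb, with no ribosomal part, had 0.081 in sh7 and 0.022 in sh5.

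Rps6, the protein phosphorylated by S6 kinase downstream of mTOR, stood at 2540 and 2668 TPM in EV, 2862 in sh5 and 2471 and 2308 in sh7. Its log2 difference was -0.12 (SE 0.0843) in sh7 and 0.14 (SE 0.103) in sh5, close to the median of the 29 genes in each comparison. It was -0.075 in sh7 without sh7 replicate 2 and -0.0011 in sh5 after quantile normalization. The members not yet given were Rps3a1, Rps15a, Rps19, Rps21, Rps28 and Rps29. Their log2 differences from EV ran from -0.21 for Rps15a to -0.087 for Rps3a1 in sh7, and from 0.063 for Rps15a to 0.23 for Rps19 in sh5. Rps19, the gene most often mutated in Diamond-Blackfan anaemia in humans, had a log2 difference of -0.11 in sh7.

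The share of each gene in the 29-gene sum places each member relative to the group as a whole. Rps12 made up 3.41% and 3.68% of the sum in EV, 3.76% in sh5 and 2.59% and 2.49% in sh7. In sh7, 8 members had a share below both EV libraries, 6 had a share above both and 15 overlapped. The 8 lower shares belonged to Rps12, Rps13, Rps26, Rps25, Rps9, Rps4x, Rps21 and Fau. The 6 higher shares belonged to Rps27l, Rps2, Rps14, Rpsa, Rps24 and Rps3.

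Rps2, the largest contributor, had a mean share of 9.65% ± 0.118 (SD, n = 2) in EV and 10.6% ± 0.163 (SD, n = 2) in sh7. Rps13 had 2.12% ± 0.0833 (SD, n = 2) in EV and 1.81% ± 0.0218 (SD, n = 2) in sh7. The log2 ratio of the sh7 to the EV share was -0.48 for Rps12, -0.23 for Rps13 and 0.18 for Rps27l, and it lay between those last values for every other member. These shares are a description: they sum to a fixed total in each library, so that a lower share of one gene raises the others.

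**Figure D5:**
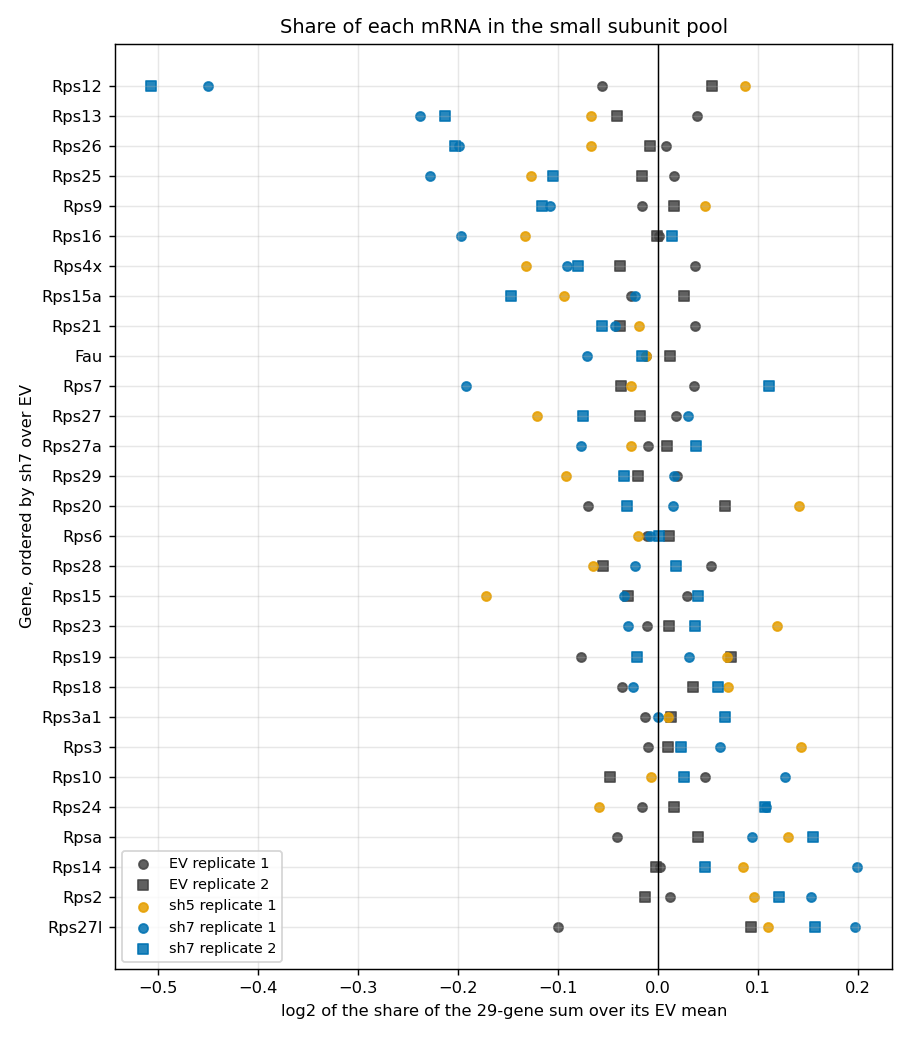
Log2 of each gene's share of the 29-gene sum over its mean EV share, 1 point per library, with genes ordered by the ratio of mean sh7 to mean EV share. Rps12 is apart from the rest in both sh7 libraries, with a log2 ratio of means of -0.48, while the next gene, Rps13, has -0.23.

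Both parts of the subunit held low members. The 12 head proteins, which form the part that holds tRNA and moves during translocation, had a median log2 difference of -0.12 in sh7 with 12 lower, and 0.14 in sh5 with 11 higher. The 17 body and platform proteins, which carry the mRNA channel and the contacts with the large subunit, had -0.14 with 13 lower, and 0.14 with 17 higher. The 2 lowest members, Rps12 and Rps13, are a head and a body protein. The difference between these groups was not tested, since it would treat genes as replicates.

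Members with and without the pyrimidine start had overlapping differences, given as a description. The split rests on annotated starts, and the starts used in these cells were not measured. Within 25 bases either side of the start the pattern was in 22 of the 25 matched genes. A gene counted as lacking it may therefore still be a TOP mRNA. In sh7 the 13 genes with a C and at least 4 pyrimidines at the start had a median of -0.12, with a range of -0.32 to 0.060, and the 12 matched genes without it had -0.14, with a range of -0.60 to 0.0042. In sh5 the medians were 0.15 and 0.11. In the printed windows the pyrimidine run of Rps12 begins 8 bases after the annotated first base, and that of Rps25 ends before it, and both genes were counted as lacking the pattern.

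Rack1, a scaffold protein on the head of the small subunit that is not among the 29, stood at 1789 and 1914 TPM in EV, 2099 in sh5 and 1544 and 1530 in sh7 (log2 difference of sh7 from EV -0.27, SE 0.0792, limma adjusted p = 0.293). Both sh7 values were below both EV values and the sh5 value was above them.

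Large subunit mRNAs gave medians of the same sign as the small subunit in each comparison. Of 49, 46 were lower and 3 higher in sh7, with a median of -0.14, and 40 were higher and 9 lower in sh5, with a median of 0.12. The sh7 mean was below sh5 in 47 of 49, with a median of -0.22. None passed the adjusted threshold in any of these comparisons. Their lowest values by p in sh7 were those of Rpl29, at -0.45, Rpl28, at -0.32, and Rpl10, at -0.31. The small subunit medians beside these were -0.13, 0.14 and -0.27.

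Genes that build the small subunit or start translation with it were described next, beside all genes tested, of which 64.3% were higher in sh7 with a median of 0.09 and 41.4% were higher in sh5 with a median of -0.05. Of 30 small subunit assembly factors, 17 were lower and 13 higher in sh7, with a median of -0.021, and 18 were lower in sh5, with a median of -0.058. Tsr2, the chaperone of Rps26, stood at 65.0 and 61.4 TPM in EV, 62.0 in sh5 and 47.6 and 46.6 in sh7, a log2 difference of -0.41 (SE 0.0885, limma adjusted p = 0.246). Ltv1, an assembly factor of the head, had -0.34, and the nucleolar protein Nop56 had -0.18. Tsr2 and its client Rps26 were both below EV in both sh7 libraries and neither passed the threshold.

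Of 21 initiation factors that bind the small subunit, 18 were lower in sh7 with a median of -0.086, and 13 were higher in sh5 with a median of 0.066. The subunit Eif3i stood at 275 and 278 TPM in EV, 306 in sh5 and 203 and 203 in sh7, a log2 difference of -0.45 (SE 0.0706, limma adjusted p = 0.180). Eif3d had -0.38 and Eif3l -0.14. Of 16 further TOP mRNAs, 14 were lower in sh7 with a median of -0.13, and 10 were higher in sh5 with a median of 0.061. Npm1, a nucleolar chaperone of ribosome assembly, had -0.46 in sh7 and -0.11 in sh5, Vim had -0.56 and -0.33, and Eef1a1, the elongation factor that delivers tRNA, had -0.22 and 0.065.

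Of 18 regulators of TOP mRNAs, 11 were higher in sh7 with a median of 0.084, and 7 were higher in sh5 with a median of -0.11. Eif4ebp1, the mTOR-controlled inhibitor of cap-dependent initiation, stood at 162 and 178 TPM in EV, 199 in sh5 and 116 and 109 in sh7, a log2 difference of -0.59 (SE 0.0897, limma adjusted p = 0.170). Tsc1, an inhibitor of mTOR, had 0.41, and the S6 kinase gene Rps6kb2 had 0.28. Of 12 kinases and ubiquitin ligases or proteases acting on small subunit proteins, 9 were higher in sh7 with a median of 0.11, and 4 were higher in sh5 with a median of -0.13. Rnf25, a ligase of stalled ribosomes, stood at 38.3 and 40.5 TPM in EV, 52.8 in sh5 and 64.3 and 65.4 in sh7, a log2 difference of 0.70 (SE 0.0895, limma adjusted p = 0.125). Usp10, a protease that removes ubiquitin from small subunit proteins, had -0.22.

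Of 16 p53 targets, a pathway that responds to free ribosomal proteins through MDM2, 10 (62.5%) were higher in sh7 with a median of 0.076, near the 64.3% and 0.09 of all genes, and 13 were higher in sh5 with a median of 0.39. In sh7 6 of the 16 were lower, down to -0.13. Whether p53 was active in these SV40-transformed cells was not tested. The 3 genes with the smallest p are named. Btg2 stood at 8.95 and 17.3 TPM in EV, 22.5 in sh5 and 27.0 and 32.4 in sh7, a log2 difference of 1.18 in sh7 (SE 0.314, limma adjusted p = 0.274). Trp53inp1 had 0.65 and Sesn2 had 0.48, and the EV replicates of all 3 genes were far apart, as at 4.62 and 10.2 TPM for Trp53inp1. Of 13 mitochondrially encoded mRNAs, 10 were higher in sh7 with a median of 0.26, and 12 were lower in sh5 with a median of -2.42. No gene of these lists passed the adjusted threshold.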

How the data were processed

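The 5 mRNA libraries were used, and the 4 small RNA samples of the series were not analysed here. The deposited values are TPM per gene, scaled by the authors to 1000000 in each library. Per the submitters' processing notes kallisto 0.48.0 was used, and the genome build and annotation were not named in the sources used here. TPM keep no depth, so the depth of each library is unknown and no counting interval can be given. Near-identical copies can share reads.

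The 12728 genes whose mean reached 1 TPM were tested with limma 3.58.1 in R 4.3.3 on log2(TPM + 1), with a pseudocount of 1 that understates differences of low genes, empirical Bayes moderation with trend, and Benjamini-Hochberg adjustment over all genes tested. A model with 3 groups has 2 residual degrees of freedom, and a model with the 3 shRNA libraries as 1 arm has 3. The 29 members and all lists were chosen with earlier results of these data known. Lists may share genes, and Rps27a stands both among the members and among the ubiquitin genes. Named members are the extremes of level, of difference and of p in each comparison, plus Rps27, Rps27l, Rps27a, Fau, Rps6 and Rpsa. Up to 3 genes with the smallest p in sh7 against EV are named from other lists. Genes just outside these rules are named where the text turns on them. Pseudogenes are genes named as the member followed by -ps. Motif shares use RefSeq windows, GRCm38.p6. Alternatives changed the pseudocount, filter, scaling, moderation, replicate block and libraries. The set of other genes of at least 500 TPM, which left out the small and large subunit lists but not their pseudogenes, was added after seeing the data. Some genes of the small subunit and ubiquitin lists are not reported here.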

Additional observations from a re-analysis of the deposited data

How the results depend on the processing

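TPM hold no depth, so counting error is unknown, and 2, 1 and 2 libraries per group limit every comparison. Over the alternatives there were 24 changes of sign among the members named for each comparison, which are not all 29. Each change is that of 1 member in 1 setting, so the same member can be counted under several settings. The members' median of the 1-arm comparison also changed sign without sh7 replicate 2. Members outside that count turned too. After quantile normalization the members lower went from 29 to 25 in sh7 against sh5 and from 1 to 8 in sh5. No member passed the adjusted threshold under any of them. The cause of each change below was not tested.

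Median-of-ratios scaling moved the members' median to -0.21 in sh7, 0.21 in sh5 (0 members lower) and -0.43 in sh7 against sh5, and the log2 ratio of summed TPM to -0.21 in sh7 and 0.23 in sh5. It turned the sign of Rps27l (-0.027), Rps2 (-0.071), Rpsa (-0.083) and Rps14 (-0.084) in sh7 and of Rps15 (0.059) in sh5. Quantile normalization moved the median to 0.045 in sh5 (8 members lower) and -0.13 in sh7 against sh5 (25 members lower). Among the members named for each comparison, it turned Rps2 (-0.13), Rps24 (0.038) and Rps27 (0.0045) in sh7. In sh5 it turned Rps4x (-0.036), Rps27 (-0.054) and Rps6 (-0.0011) among them. Rescaling without mitochondrial and top 20 genes turned Rpsa (-0.0050) and Rps14 (-0.0067) in sh7.

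The count of all genes past the threshold as higher in sh7 was 2, and it was 1 with a pseudocount of 0.1 or 0.5 and under median-of-ratios scaling and quantile normalization, 0 without a filter, 15 without the moderation trend and 5 with robust moderation. The lower count was 0, and it was 1 with a filter of 5 TPM, 4 without the trend and 2 with robust moderation. Without a filter it was 175 higher and 5 lower in sh5, and 42 higher and 209 lower in sh7 against sh5, where it was 0 higher without the trend and 4 with robust moderation. With the shRNA libraries as 1 arm, 1 lower gene passed with a pseudocount of 0.1 or 0.5, 0 higher and 0 lower without a filter, and 0 higher and 1 lower with a filter of 5 TPM.

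Replicate numbers of EV and sh7 share only a number: the correlation of their deviations over genes was -0.016. With a replicate block 0 genes passed as higher in sh7 and in sh7 against sh5, and 0 higher and 0 lower in the 1-arm comparison. In sh5 the block gave 3 members lower, with Rps4x at -0.0053 and Rps27 at -0.014.

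Leaving out 1 library at a time gave 0 to 233 higher and 0 to 48 lower genes in sh7, 0 to 55 higher and 0 to 4 lower in sh5, 0 to 4 higher in sh7 against sh5, and 0 to 3 higher and 0 lower in the 1-arm comparison, whose members' median ran from -0.13 to 0.014 with 11 to 25 members lower. In sh7 it gave Rps27l -0.061 to 0.18, Rpsa -0.061 to 0.069, Rps14 -0.13 to 0.13, Rps24 -0.068 to 0.040 and Rps2 -0.053 to 0.085.

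With pseudogenes added, 9 members kept their place in the EV order. With 25 bases either side of the start, CTTT was in 14 of 25 genes (38.7% of all genes), TTTCC in 7 (16.7%), CTTCC in 13 (25%), TCTT in 11 (38.5%), the C and pyrimidine pattern in 22 (59.3%) and CCGGAA or TTCCGG in 5 (6.01%).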
